A study of Mus musculus with 6 samples.

Results

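The genes described here encode proteins that hold neighbouring cells together or build synapse-like contacts: cadherins, non-clustered protocadherins, neurexins and their neuroligin and LRRTM partners, contactins and contactin-associated proteins, the SynCAM (Cadm), NCAM and L1 families, and the epithelial adhesion protein Epcam. They were taken by symbol pattern from the expression table, and 69 of its 46959 gene rows matched. The table covers 3 populations of endocrine cells sorted by flow cytometry from the islets of adult triple-transgenic mice, which carried the insulin-promoter nuclear reporter mIns1-H2b-mCherry, an Sst-cre driver and a floxed YFP allele. All 3 populations carried the same alleles. Beta cells were collected as mCherry-positive cells and delta cells as YFP-positive cells. The double-positive cells carried the delta lineage label together with the beta reporter. Their label gives them as transdifferentiated from delta cells, although the series' own text calls their origin alpha in places. Each population has 2 libraries, 1 from a pool of male and 1 from a pool of female islets. Each pool held islets of 10 to 12 animals, kept overnight at 5.5 mM glucose with 10% serum before sorting. The labels also give 0.25% trypsin for all libraries alike, and its effect on these genes was not tested. The pool is therefore the replicate, and each p-value measures the spread between pools of different sex. The populations of 1 sex came from the same islets, per the series text. The main fit leaves this pairing out, and a fit with pool sex as a block is given as an alternative. A Cre-activated label marks any cell that ever drove Sst, whether or not it still does. In pooled RNA, a smaller share of cells making a transcript and less transcript per cell cannot be told apart.

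As background, classical cadherins bind like cadherins on the next cell across a calcium-dependent contact and anchor it to actin through catenins. Neurexins on one membrane bind neuroligins, LRRTMs and secreted cerebellins on the other and so position release sites against receptors. Beta cells are known to carry neuroligin 2. NCAMs, SynCAMs and L1 family members are immunoglobulin-domain proteins that bind themselves and each other, and NCAM is a known surface protein of rodent islet cells. Contactins are lipid-anchored relatives that pair with contactin-associated proteins and receptor phosphatases.

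The levels are RPKM, read counts scaled to exon length and sequencing depth. Read denominators worked out from the steps between low values were 10.9 to 21.6 M reads per library, lowest in the 2 double-positive libraries, so 3 reads on a 1 kb gene are worth 0.139 to 0.275 RPKM. The label check held in each library: Sst, the delta hormone, was 71.1 and 86.8 RPKM in beta cells and 49769.6 and 58480.5 in delta cells. Ins2 in double-positive cells was 34.2% of its beta mean. In beta libraries Ins1 was 65332 and 50554 RPKM and Ins2 243303 and 169339 RPKM. The median of all tested genes lay 0.32 higher in double-positive than in beta cells on the log2 scale. It was -0.36 in the beta minus delta comparison. The part of insulin transcripts in these medians was not tested. Because the medians lay away from 0, counts are also given after median-of-ratios scaling, which puts them near 0. The alpha-cell genes Gcg, Irx1, Irx2 and Ttr, all detected everywhere, summed to 457 and 637 RPKM in beta, 1794 and 2588 in double-positive and 15135 and 16504 in delta libraries, and the pancreatic polypeptide-cell pair Ppy and Pyy to 558 to 802, 11877 to 12041 and 36498 to 37076 RPKM. The library kit keeps no strand, and genes on the opposite strand overlap 0.297% to 9.16% of the exon length of Cdh8, Cntnap1, Lrrtm2, Ncam1, Nlgn1 and Nrxn2, whose reads there cannot be told apart. A list of 9 Schwann and glial genes summed to 3.05 to 3.07, 7.72 to 8.46 and 10.4 to 10.53 RPKM, with Gfap and Foxd3 at 0 in all 6 libraries. The alpha, pancreatic polypeptide and Schwann sums run in the same order as most of the adhesion genes, and their part in the results was not tested. The 8 immune genes summed to 153 and 170.4 RPKM in beta, 46.7 and 52.4 in double-positive and 76.3 and 90.7 in delta libraries. Cd74 was at 72.5 and 73.9 RPKM in beta, 2.38 and 6.83 in double-positive and 2.88 and 2.76 in delta libraries. C1qa was highest in delta libraries, at 34.9 and 40.5 RPKM in beta, 29.4 and 32.6 in double-positive and 59.3 and 76.9 in delta libraries. The immune sum was highest in beta cells, as Nrcam and Cntfr were, but lowest in double-positive cells, as those genes were not. Its part in those results was not tested. In the neuronal genes Rbfox3, Snap25, Tubb3, Th, Chat and Elavl4, Chat was at 0 in all 6 libraries, and the sums were 62.4 and 71.8, 77.1 and 81.5, and 60.7 and 57.8 RPKM. The members differed: Rbfox3 was 0.0877 and 0.151 RPKM in beta and 2.47 and 2.32 in delta libraries. Snap25 was 15.2 and 19.6 against 28.4 and 27.8, and Elavl4 3.40 and 3.39 against 13.6 and 11.9. Tubb3 ran the other way, 31.6 and 37.4 against 2.74 and 3.21, and Th was lowest in double-positive cells. Their part in the results was not tested. The 8 acinar genes differed between the pools of 1 population, at 7857 RPKM in male and 299 in female beta cells, 2162 and 141 in double-positive cells and 707 and 519 in delta cells.

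Most of the tested adhesion genes were lower in beta than in delta cells, and double-positive cells mostly stood between them. Of the 69 genes, 28 reached 1 RPKM in at least 2 of the 6 libraries and were tested, 15 of them at that level in every library. Differences are given as log2(RPKM + 1) ± standard error with limma's Benjamini-Hochberg adjusted p over all 13022 tested genes, a scale that understates changes of low genes. Compared with delta cells, beta cells were lower for 20 of the 28 (46.3% of all tested genes were lower) and higher for 1, Nrcam (11.7% of all genes). Compared with beta cells, double-positive cells were higher for 18 (42.5% of all genes) and lower for 1, again Nrcam (8.46%). Compared with delta cells, double-positive cells were lower for 12 (7.20% of all genes) and higher for 2, Nrcam and Cdh7 (5.53%). Cntnap5b, Lrrtm1, Nlgn1, Nrxn2 and Pcdh9 passed the level filter only through their delta values, and Cdh7 only through its double-positive values, so they had to be higher there: their calls follow in part from that choice, and these counts describe the tested genes and not all 69. The 3 comparisons share their libraries, and 12 genes were called in all 3, as were 7.54% of all tested genes.

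After median-of-ratios scaling 16 genes were lower and 5 higher in beta than in delta cells (29.4% and 28.5% of all genes). In double-positive cells 14 were higher and 3 lower than in beta cells (27.6% and 26.7%), and 11 were lower and 2 higher than in delta cells (6.45% and 5.99%). The median difference of the 28 genes was -1.21 for beta minus delta, where all tested genes had -0.36, and after scaling it was -0.90 where all genes had -0.0023. For double-positive minus delta the medians were -0.42 for the 28 genes and -0.027 for all genes. By library values, 15 of the 28 genes lay in the order beta below double-positive below delta with no overlap between groups, as did 21.9% of all tested genes; after scaling 12 did, against 14.2%. Nrcam alone held the opposite order, as did 5.76% of all genes and 12.4% after scaling. No gene was lower in both double-positive libraries than in all 4 others (5.90% of all genes), but after scaling Cadm4, Cntn1 and Pcdh1 were (11.8%). Cdh7, L1cam and Lrrtm2 were higher in both double-positive libraries than in all 4 others (16.0% of all genes), and after scaling this held for Cdh7 and Lrrtm2 (12.3%) but not L1cam. Every called difference had the same sign within the male and within the female pool. A call from 2 libraries a group nearly requires this, so it adds no separate support. Leaving out 1 library at a time (written as without that library), 6 of the 14 calls between double-positive and delta cells held throughout (Cadm1, Epcam, Lrrtm1, Ncam2, Nrcam and Pcdh15), while 8 did not. The 12 lower genes were 5 without the male double-positive or the female delta library, 6 without the female double-positive and 7 without the male delta library. All tested genes called lower fell likewise, from 937 to 396, 253, 343 and 347 in that order. With no filter on low values 8 genes were called lower, among them Cdh9, which was not in the main fit. All genes called lower went from 937 to 647. The 2 higher genes were 1 without the female double-positive or either delta library. Without the male beta library 2 genes were lower in double-positive than in beta cells and 3 higher in beta than in delta cells.

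**Figure D1:**
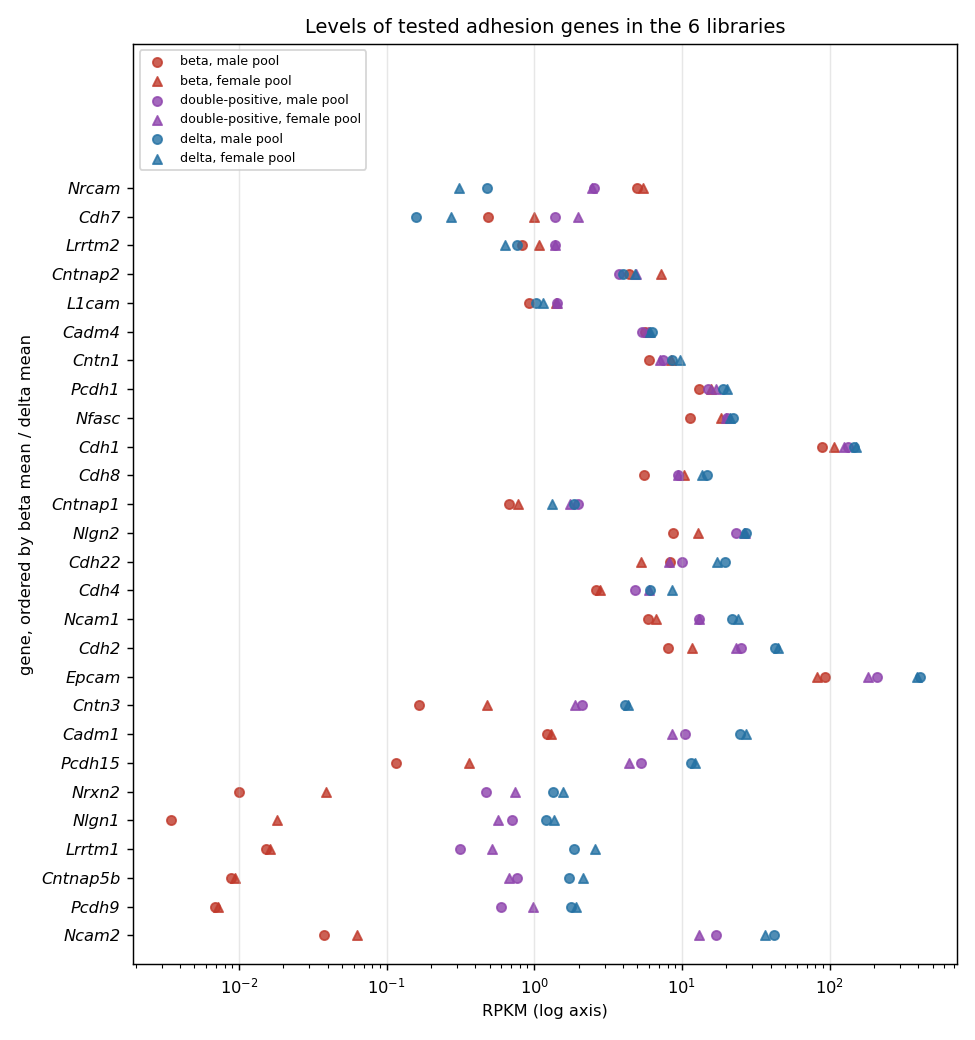
RPKM of 27 of the 28 tested genes on a log axis, 1 point per library (circles male pool, triangles female pool), ordered by the ratio of beta to delta mean. From Ncam2 at the bottom up to Ncam1 the beta points lie to the left of the double-positive points, while Nrcam at the top runs the other way.

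**Figure D2:**
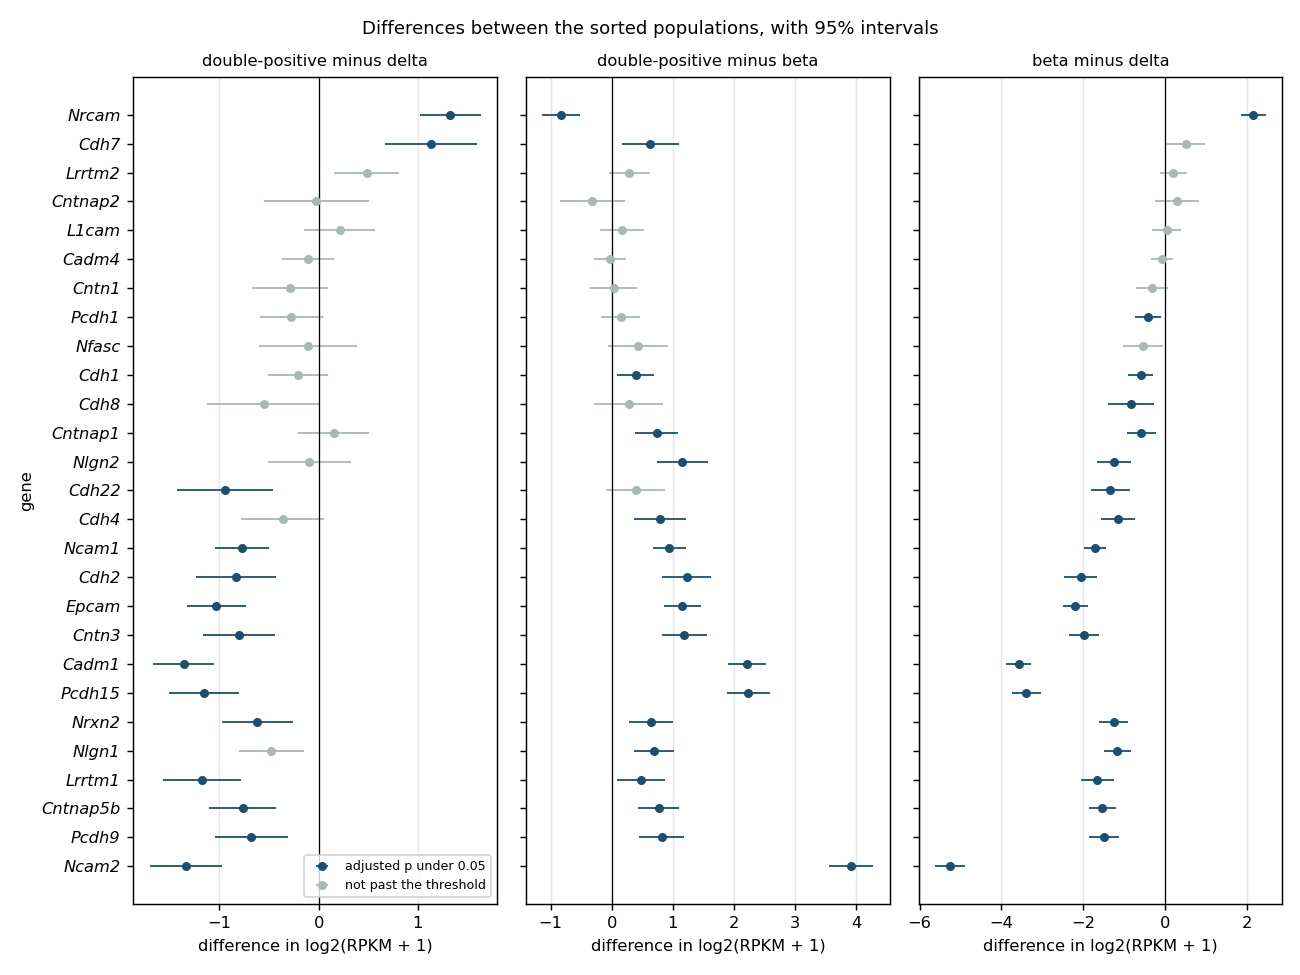
Differences in log2(RPKM + 1) between populations for the same genes, with 95% intervals from the limma fit; dark points have an adjusted p under 0.05, and the horizontal scale differs between panels. Of the dark points, 12 lie below 0 and 2 above it for double-positive minus delta, 17 above and 1 below for double-positive minus beta, and 19 below and 1 above for beta minus delta.

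Among the 28 genes, Ncam2 had the largest difference between beta and delta cells. Ncam2, which encodes a homophilic immunoglobulin-domain protein of olfactory and other neurons, was 0.0376 and 0.0635 RPKM in beta, 17.1 and 13.0 in double-positive and 42.1 and 36.5 in delta libraries. The beta values correspond to about 9 and 15 reads and the delta values to about 8098 and 6491, so beta cells held 0.129% and double-positive cells 38.2% of the delta mean, with no overlap between groups. For Ncam2, beta minus delta was -5.26 ± 0.15 (adjusted p = 4.0e-06). Ncam2 in double-positive cells differed from beta cells by 3.92 ± 0.15 (adjusted p = 4.9e-05) and from delta cells by -1.34 ± 0.15 (adjusted p = 0.0032). Ncam1, the gene of NCAM itself, was 5.90 and 6.71 RPKM in beta, 13.0 and 13.0 in double-positive and 22.0 and 24.1 in delta libraries. It was called in the same directions with smaller differences, -1.72 ± 0.11 (adjusted p = 6.7e-05), 0.94 ± 0.11 (adjusted p = 0.0011) and -0.78 ± 0.11 (adjusted p = 0.0075) in that order. The makeup of the pair thus differed: Ncam2 made up 0.633% and 0.936% in beta, 56.7% and 50.02% in double-positive and 65.7% and 60.3% in delta libraries of the summed RPKM of both. The double-positive minus delta difference of Ncam1 missed the threshold without the male double-positive, the female double-positive or the female delta library (adjusted p = 0.053, 0.059 and 0.087), while that of Ncam2 did not in any of the alternatives run.

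To show the sequence next to genes with different patterns, the 250 bases upstream of the annotated start are printed for 4 of them: Ncam2 and Epcam, which were lowest in beta cells, Nlgn2, whose double-positive level lay near the delta level, and Nrcam, which was highest in beta cells. They run 5′ to 3′ on the gene's strand, from RefSeq tables on GRCm38.p6, with CG dinucleotides in capitals.
Ncam2: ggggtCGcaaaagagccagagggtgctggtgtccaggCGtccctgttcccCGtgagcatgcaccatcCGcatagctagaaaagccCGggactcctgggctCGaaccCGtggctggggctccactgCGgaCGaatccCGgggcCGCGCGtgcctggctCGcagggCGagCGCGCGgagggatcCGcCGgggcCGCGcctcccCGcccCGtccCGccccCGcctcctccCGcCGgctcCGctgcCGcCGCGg
Epcam: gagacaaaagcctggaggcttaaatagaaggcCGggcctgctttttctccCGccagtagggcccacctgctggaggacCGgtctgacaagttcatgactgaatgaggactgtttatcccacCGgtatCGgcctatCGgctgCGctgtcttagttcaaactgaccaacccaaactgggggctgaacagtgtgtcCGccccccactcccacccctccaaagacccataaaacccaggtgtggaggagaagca
Nlgn2: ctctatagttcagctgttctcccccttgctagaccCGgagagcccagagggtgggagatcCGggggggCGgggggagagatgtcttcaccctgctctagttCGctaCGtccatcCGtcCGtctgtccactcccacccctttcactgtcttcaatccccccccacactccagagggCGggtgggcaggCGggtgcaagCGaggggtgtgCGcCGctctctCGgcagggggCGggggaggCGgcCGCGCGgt
Nrcam: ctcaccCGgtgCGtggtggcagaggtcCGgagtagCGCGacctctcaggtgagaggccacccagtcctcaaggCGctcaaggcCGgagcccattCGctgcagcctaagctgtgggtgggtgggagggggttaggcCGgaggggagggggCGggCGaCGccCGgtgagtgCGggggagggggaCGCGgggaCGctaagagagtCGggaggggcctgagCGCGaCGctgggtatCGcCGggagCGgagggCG
The windows lie at chr16:81200447-81200696 (plus strand), chr17:87635729-87635978 (plus), chr11:69837785-69838034 (minus) and chr12:44328635-44328884 (plus). The Ncam2 window holds 32 CG dinucleotides and 75.2% G and C, and 4.58% of the 32851 windows in the RefSeq promoter table hold as many. Nrcam has 25 at 72.4% G and C, Nlgn2 18 at 67.6% and Epcam 8 at 56.4%, against medians of 6 and 52.4% over all windows. The gene with the lowest beta share of delta and the gene with the opposite pattern therefore both have CG-rich windows, and Epcam has a window close to the median. None of the 4 windows holds TAAT, a core that homeodomain factors read, on either strand, whereas 54.9% of all windows do; TATAAA (12.4% of all windows) and TGACGTCA, the cyclic AMP response element (1.55%), were also not in these letters. CANNTG, the E-box core, matched at 2 places in Epcam, 1 in Nlgn2, 1 in Nrcam and 0 in Ncam2, with 66.2% of windows holding at least 1. These counts are descriptions of letters in a short window, and promoter entries were found for 46 of the 69 symbols.

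The leading SynCAM differed between populations. Cadm1 at chr9:47530173-47857637 encodes SynCAM 1, an immunoglobulin-domain protein that joins endocrine cells to each other and to nerve endings, and its level was 1.23 and 1.30 RPKM in beta, 10.5 and 8.58 in double-positive and 24.8 and 27.3 in delta libraries. No groups overlapped, and beta cells held 4.84% and double-positive cells 36.7% of the delta mean. For Cadm1, beta minus delta was -3.58 ± 0.13 (adjusted p = 9.2e-06). Cadm1 in double-positive cells differed from beta cells by 2.22 ± 0.13 (adjusted p = 1.5e-04) and from delta cells by -1.36 ± 0.13 (adjusted p = 0.0018). Cadm4 stayed at a like level everywhere, 5.64 and 5.95 RPKM in beta, 5.39 and 5.90 in double-positive and 6.25 and 6.08 in delta libraries, and no comparison was called (double-positive minus delta -0.11 ± 0.11, adjusted p = 0.59). Cadm1 therefore made up 17.8% and 17.9% in beta, 66.1% and 59.1% in double-positive and 79.6% and 81.6% in delta libraries of the summed Cadm RPKM. After median-of-ratios scaling Cadm4 was lower in double-positive than in beta cells, -0.38 (adjusted p = 0.020), and higher in beta than in delta cells, 0.29 (adjusted p = 0.045), whereas the 3 calls of Cadm1 held under each alternative run. Cadm2 and Cadm3 were too low to test.

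Neurexins and their postsynaptic partners included a gene whose double-positive level was near that of delta cells and genes at a level between beta and delta cells. Nlgn2, at chr11:69823122-69837784, encodes the neuroligin of inhibitory synapses and was 8.76 and 12.8 RPKM in beta, 23.4 and 26.5 in double-positive and 27.04 and 26.2 in delta libraries. The double-positive and delta libraries overlap, and both beta libraries are below them. The double-positive mean was 93.7% and the beta mean 40.6% of the delta mean. Double-positive minus delta was -0.093 ± 0.18 (adjusted p = 0.79) with a 95% interval from -0.51 to 0.33, so equal levels are not shown. Against beta cells, double-positive cells were higher by 1.16 ± 0.18 (adjusted p = 0.0024), and beta minus delta was -1.25 ± 0.18 (adjusted p = 0.0013).

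Nrxn2 and Nlgn1, a neurexin and a second neuroligin, were at a few reads in beta cells and were tested only because of their delta values. Nrxn2 was 0.0101 and 0.0389 RPKM in beta, 0.474 and 0.737 in double-positive and 1.35 and 1.57 in delta libraries, a beta minus delta difference of -1.26 ± 0.15 (adjusted p = 6.5e-04). Double-positive cells lay above beta cells by 0.64 ± 0.15 (adjusted p = 0.012). Double-positive minus delta was -0.62 ± 0.15 (adjusted p = 0.043), which missed the threshold with any 1 of the 6 libraries left out (adjusted p = 0.066 to 0.18) and after scaling (0.057), and the difference from beta cells missed it without the male beta library (0.062). Nlgn1, the neuroligin of excitatory synapses, was 0.00345 and 0.0182 RPKM in beta, 0.707 and 0.567 in double-positive and 1.19 and 1.36 in delta libraries, where the beta values stand for about 1 and 5 reads. Beta minus delta was -1.17 ± 0.14 (adjusted p = 6.3e-04), double-positive minus beta 0.69 ± 0.14 (adjusted p = 0.0066), and double-positive minus delta, at 49.9% of the delta mean, -0.48 ± 0.14 (adjusted p = 0.076). Nlgn3 did not reach the level filter; its values were 0 and 0.0105 RPKM in beta, 0.215 and 0.267 in double-positive and 0.350 and 0.303 in delta libraries, and 41.2% of its exon length is overlapped on the same strand by Gm21986, so its reads could have been divided between both.

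Among the LRRTMs, leucine-rich postsynaptic partners of neurexins, the leading member differed between populations. Lrrtm1 was 0.0153 and 0.0161 RPKM in beta, 0.316 and 0.514 in double-positive and 1.87 and 2.57 in delta libraries; each beta value is worth about 1 read. Beta minus delta was -1.65 ± 0.17 (adjusted p = 3.2e-04). Double-positive minus delta was -1.18 ± 0.17 (adjusted p = 0.0065), at 18.7% of the delta mean, the lowest share among the genes lower in double-positive cells; it was tested only through its delta values. Its call above beta cells, 0.47 ± 0.17 (adjusted p = 0.049), missed the threshold without either double-positive or either beta library, after scaling and with no filter (adjusted p = 0.069 to 0.17, 0.065 and 0.075). Lrrtm2, named here after its values were seen, was 0.827 and 1.07 RPKM in beta, 1.38 and 1.38 in double-positive and 0.770 and 0.630 in delta libraries: both double-positive libraries were above the other 4, but no comparison was called (double-positive minus delta 0.49 ± 0.14, adjusted p = 0.070; minus beta 0.29 ± 0.14, adjusted p = 0.12). After scaling it was higher in beta than in delta cells (adjusted p = 0.035). Lrrtm2 led the family in beta and double-positive cells and Lrrtm1 in delta cells.

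**Figure D3:**
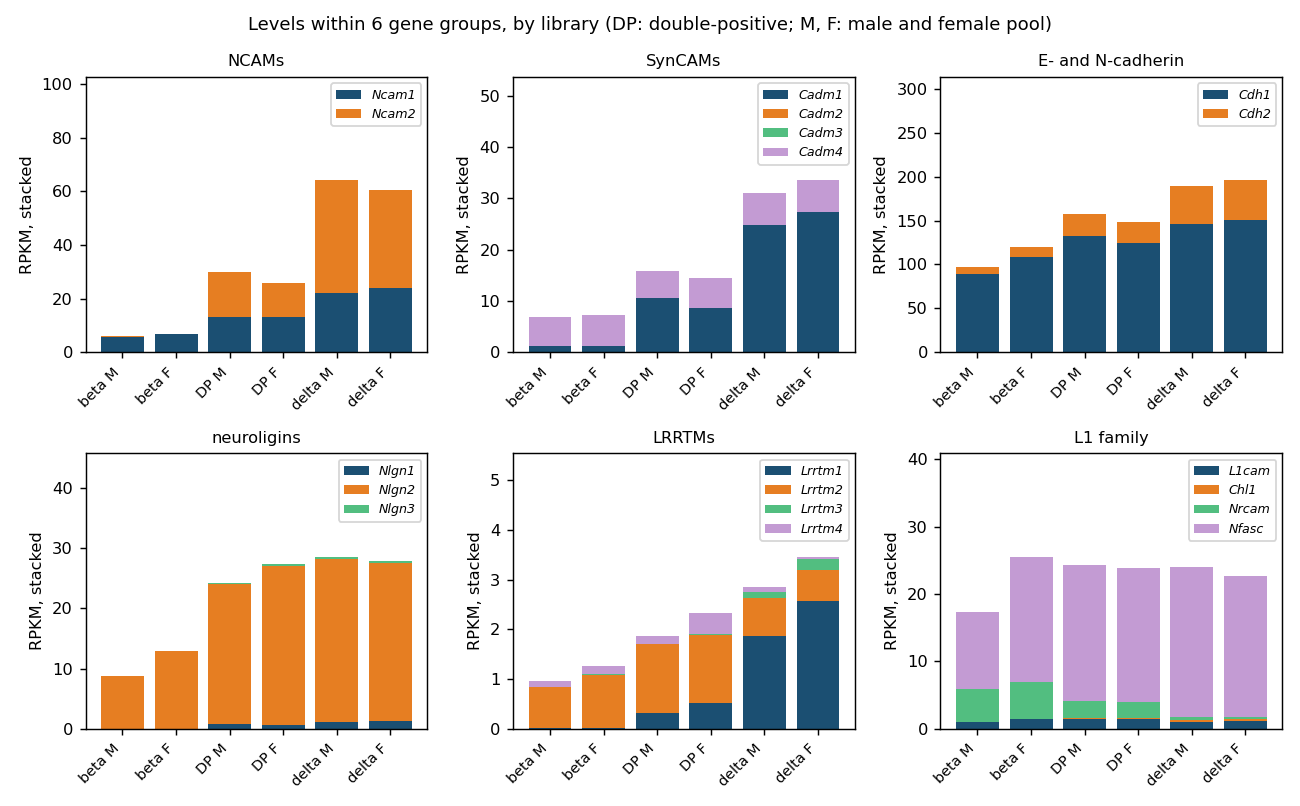
RPKM stacked by gene within 6 gene groups, 1 bar per library (DP, double-positive; M and F, male and female pool). Ncam2, Cadm1 and Lrrtm1 are the segments that are thin or not visible in the beta bars and thickest in the delta bars, and the Nrcam segment shrinks from beta to delta.

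Cadherins were led everywhere by Cdh1, the gene of E-cadherin, which holds epithelial and islet cells together. Its level was 88.8 and 108 RPKM in beta, 132 and 125 in double-positive and 146 and 151 in delta libraries, with no overlap between groups. The differences were small: -0.60 ± 0.13 (adjusted p = 0.0067) for beta minus delta and 0.39 ± 0.13 (adjusted p = 0.038) for double-positive minus beta, with -0.21 ± 0.13 (adjusted p = 0.35) for double-positive minus delta. Both calls of Cdh1 depended on scaling, giving -0.17 (adjusted p = 0.22) and -0.013 (adjusted p = 0.92) with median-of-ratios factors. The call against beta cells also missed the threshold without the male beta or any 1 of the double-positive and delta libraries (adjusted p up to 0.17), and the call against delta cells without the female delta library (0.051). Cdh2, the gene of N-cadherin, differed more: 8.03 and 11.7 RPKM in beta, 24.97 and 23.3 in double-positive and 42.9 and 44.7 in delta libraries. Beta cells held 22.5% and double-positive cells 55.2% of the delta mean. For Cdh2, beta minus delta was -2.06 ± 0.17 (adjusted p = 1.5e-04). Cdh2 in double-positive cells differed from beta cells by 1.23 ± 0.17 (adjusted p = 0.0017) and from delta cells by -0.83 ± 0.17 (adjusted p = 0.023). The last missed the threshold with any 1 of the 4 libraries compared left out (adjusted p = 0.10 to 0.15). Cdh1 accounted for 91.7% and 90.2% in beta, 84.1% and 84.3% in double-positive and 77.3% and 77.2% in delta libraries of the summed RPKM of Cdh1 and Cdh2.

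Type II and other cadherins did not move alike. Cdh22 was 8.27 and 5.30 RPKM in beta, 10.0 and 8.13 in double-positive and 19.5 and 17.2 in delta libraries, and double-positive cells were lower than delta cells, -0.95 ± 0.20 (adjusted p = 0.028), with beta cells lower too, -1.34 ± 0.20 (adjusted p = 0.0017). Double-positive minus beta was 0.39 ± 0.20 (adjusted p = 0.15), and with pool sex as a block it was called (0.044). Its difference between double-positive and delta cells missed the threshold with any 1 of those 4 libraries left out (adjusted p = 0.084 to 0.16). Cdh4, R-cadherin, was 2.60 and 2.80 RPKM in beta, 4.84 and 6.02 in double-positive and 6.07 and 8.60 in delta libraries: double-positive minus beta was 0.79 ± 0.18 (adjusted p = 0.010), beta minus delta -1.16 ± 0.18 (adjusted p = 0.0018), and double-positive minus delta -0.36 ± 0.18 (adjusted p = 0.25). The first of these missed the threshold after scaling and without the female double-positive library (0.062 and 0.065). Cdh8 was 5.54 and 10.3 RPKM in beta, 9.47 and 9.35 in double-positive and 14.8 and 13.8 in delta libraries. It was called only for beta minus delta, -0.83 ± 0.24 (adjusted p = 0.022), a call absent after scaling and without either delta library (0.11, 0.10 and 0.070). The 2 beta libraries of Cdh8 differed by more than the beta and double-positive means, and without the female one double-positive minus beta was 0.67 (adjusted p = 0.0048), while without either beta library double-positive minus delta passed (0.014 and 0.015).

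Cdh7, a type II cadherin at chr1:109982431-110140157, was the only called gene with both double-positive libraries above the other 4. It was 0.485 and 0.989 RPKM in beta, 1.39 and 1.97 in double-positive and 0.159 and 0.273 in delta libraries. The differences were 1.13 ± 0.20 (adjusted p = 0.013) against delta cells and 0.63 ± 0.20 (adjusted p = 0.033) against beta cells, and beta minus delta was 0.50 ± 0.20 (adjusted p = 0.064). It passed the level filter only through its double-positive values. The first missed the threshold with no filter (0.051) and without the female double-positive or either delta library (adjusted p = 0.080, 0.065 and 0.057), and the second without the male beta or female double-positive library, after scaling, with no filter and with a pseudocount of 0.1 (0.17, 0.14, 0.095, 0.076 and 0.064). With pool sex as a block and after scaling, beta cells were called higher than delta cells (0.026 and 0.028), and also without the male beta library (0.044).

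Of 12 non-clustered protocadherins, 3 were tested. Pcdh15, known for the tip links of hair cells and placed at chr10:73099342-74649737, was 0.115 and 0.360 RPKM in beta, 5.25 and 4.38 in double-positive and 11.5 and 12.3 in delta libraries. Beta cells held 1.99% and double-positive cells 40.4% of the delta mean. For Pcdh15, beta minus delta was -3.39 ± 0.15 (adjusted p = 1.3e-05). Pcdh15 in double-positive cells differed from beta cells by 2.24 ± 0.15 (adjusted p = 2.0e-04) and from delta cells by -1.15 ± 0.15 (adjusted p = 0.0047). These held with any 1 library left out, although with a pseudocount of 0.1 the last had an adjusted p of 0.069. Pcdh9, a neuronal protocadherin, was 0.00684 and 0.00721 RPKM in beta, 0.600 and 0.974 in double-positive and 1.77 and 1.93 in delta libraries, with about 1 read in each beta library. It was lower in beta than in delta cells, -1.50 ± 0.15 (adjusted p = 3.6e-04), and higher in double-positive than in beta cells, 0.82 ± 0.15 (adjusted p = 0.0053). Double-positive minus delta was -0.68 ± 0.15 (adjusted p = 0.034), which missed the threshold without 5 of the 6 libraries taken singly, the exception being the female double-positive library (adjusted p up to 0.15). Pcdh1, an epithelial protocadherin, was 13.0 and 15.7 RPKM in beta, 14.9 and 17.1 in double-positive and 18.9 and 20.1 in delta libraries. Only its beta minus delta difference was called, -0.42 ± 0.13 (adjusted p = 0.031); it was -0.016 (adjusted p = 0.92) after scaling, and it missed the threshold without the male beta or either delta library (0.087, 0.11 and 0.16).

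The contactins split between a shared and a delta-rich member. Cntn1 was 6.01 and 8.38 RPKM in beta, 7.49 and 7.07 in double-positive and 8.50 and 9.71 in delta libraries, and no comparison was called (beta minus delta -0.32 ± 0.16, adjusted p = 0.13); without the female beta library that difference passed, -0.52 (adjusted p = 0.015). Cntn3, at chr6:102162655-102573101, was 0.165 and 0.479 RPKM in beta, 2.11 and 1.88 in double-positive and 4.12 and 4.33 in delta libraries. Its beta minus delta difference was -1.99 ± 0.15 (adjusted p = 1.2e-04). Cntn3 in double-positive cells differed from beta cells by 1.19 ± 0.15 (adjusted p = 0.0013) and from delta cells by -0.80 ± 0.15 (adjusted p = 0.019). The last missed the threshold with any 1 of the 4 libraries compared left out (adjusted p = 0.075 to 0.11), with a pseudocount of 0.1 and with no filter (0.14 and 0.074). Among contactin-associated proteins, Cntnap5b was 0.00891 and 0.00939 RPKM in beta, 0.766 and 0.670 in double-positive and 1.72 and 2.13 in delta libraries, with about 1 read in each beta library. For Cntnap5b, beta minus delta was -1.53 ± 0.14 (adjusted p = 2.4e-04). Its double-positive level differed from beta cells by 0.77 ± 0.14 (adjusted p = 0.0049) and from delta cells by -0.77 ± 0.14 (adjusted p = 0.017). The last missed the threshold without either double-positive or the female delta library (0.057, 0.080 and 0.087), and it was tested only through its delta values. No source at hand says how reads that also match its close paralogs were counted; Cntnap5a and Cntnap5c had 0 to 3 reads in each library.

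Cntnap1, the partner of contactin at axonal paranodes, had a double-positive level near that of delta cells, as Nlgn2 did: 0.671 and 0.774 RPKM in beta, 1.98 and 1.75 in double-positive and 1.86 and 1.32 in delta libraries. Double-positive minus delta was 0.15 ± 0.15 (adjusted p = 0.58) with overlapping libraries, double-positive minus beta 0.73 ± 0.15 (adjusted p = 0.0074), and beta minus delta -0.58 ± 0.15 (adjusted p = 0.015). The beta minus delta call was lost after scaling and without the male beta or male delta library (adjusted p = 0.059, 0.066 and 0.091). Cntnap2 was the most abundant of its family in each library, at 4.35 and 7.17 RPKM in beta, 3.78 and 4.89 in double-positive and 3.99 and 4.83 in delta libraries, and was not called. After scaling it was lower in double-positive than in beta cells, -0.66 (adjusted p = 0.033), and higher in beta than in delta cells, 0.65 (adjusted p = 0.031). Both also passed without the male beta library (0.042 and 0.041).

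In the L1 family Nrcam stood alone in running from beta down to delta. Nrcam, at chr12:44328885-44601964, encodes an ankyrin-binding protein of nodes of Ranvier and was 4.95 and 5.49 RPKM in beta, 2.55 and 2.46 in double-positive and 0.482 and 0.311 in delta libraries. No groups overlapped, and delta cells held 7.59% and double-positive cells 47.9% of the beta mean. For Nrcam, beta minus delta was 2.16 ± 0.13 (adjusted p = 4.4e-05). Nrcam in double-positive cells differed from beta cells by -0.83 ± 0.13 (adjusted p = 0.0026) and from delta cells by 1.33 ± 0.13 (adjusted p = 0.0019). All 3 calls held under each alternative run. Nfasc, the gene of neurofascin, was the most abundant member in each library, 11.4 and 18.5 RPKM in beta, 20.2 and 19.9 in double-positive and 22.3 and 21.0 in delta libraries, and L1cam was 0.928 and 1.40 RPKM in beta, 1.42 and 1.42 in double-positive and 1.03 and 1.15 in delta libraries. Neither was called in any comparison, with double-positive minus beta at 0.44 ± 0.21 (adjusted p = 0.12) for Nfasc and 0.17 ± 0.15 (adjusted p = 0.37) for L1cam. Nfasc passed without the female beta library (double-positive minus beta 0.77, adjusted p = 0.0028; beta minus delta -0.87, adjusted p = 0.0015) and, for beta minus delta, with pool sex as a block (adjusted p = 0.043).

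Epcam, at chr17:87635979-87651129, encodes a homophilic protein of epithelial membranes, used as a surface marker of epithelial cells, and was the most abundant of the 69 genes in delta and double-positive cells. It was 92.7 and 81.7 RPKM in beta, 211 and 181 in double-positive and 409.6 and 392.2 in delta libraries. Beta cells held 21.8% and double-positive cells 48.9% of the delta mean. For Epcam, beta minus delta was -2.19 ± 0.12 (adjusted p = 3.7e-05). Epcam in double-positive cells differed from beta cells by 1.16 ± 0.12 (adjusted p = 7.0e-04) and from delta cells by -1.03 ± 0.12 (adjusted p = 0.0039). No alternative run ended a call of Epcam. The double-positive level, as a share of the delta level, varied among the genes low in beta cells. It was 18.7% of delta for Lrrtm1, 36.7% for Cadm1 and 38.2% for Ncam2. Hhex, the gene of a delta-cell transcription factor, was at 36.0% and Sst at 23.8%. For Ncam1, Cdh2, Epcam, Nlgn1 and Cntn3 it was 47.2% to 56.5%, and for Nlgn2 and Cntnap1 93.7% and 117%.

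**Figure D4:**
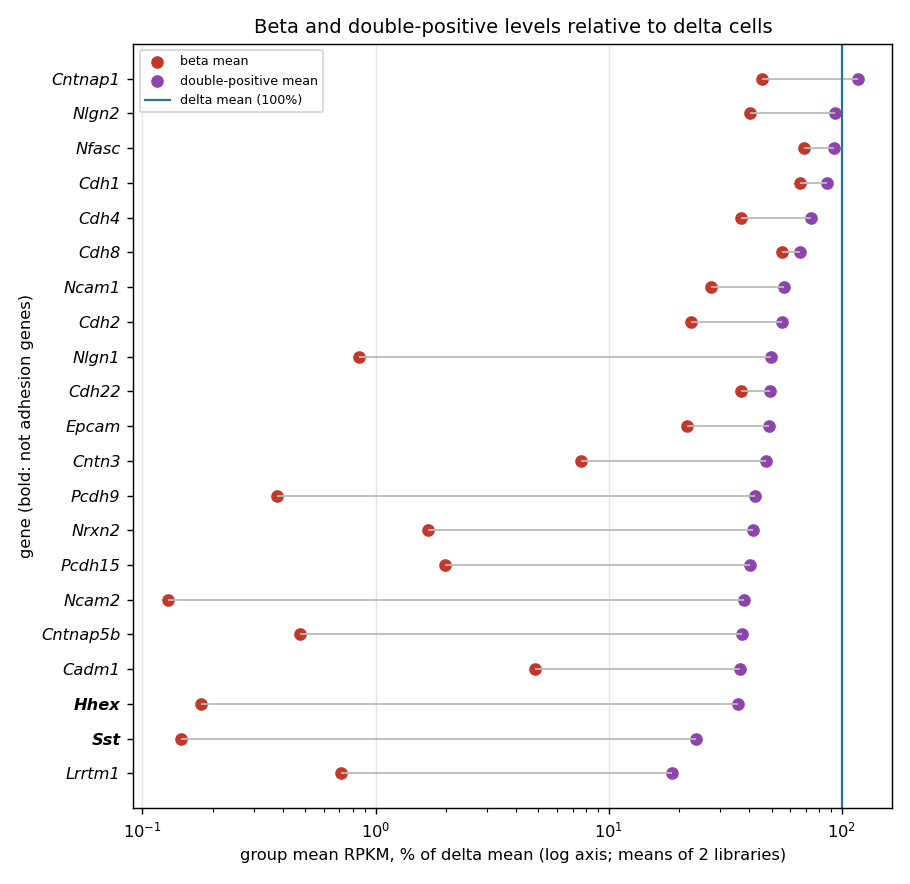
Mean RPKM of beta (red) and double-positive cells (purple) as a percentage of the delta mean, on a log axis, for tested genes whose beta mean was under 70% of delta, with Sst and Hhex for scale; each mean is of 2 libraries and has no error bar. The double-positive points run from 18.7% for Lrrtm1 to near the delta line for Nlgn2 and Cntnap1.

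The other 41 genes did not reach the filter, and none exceeded 1.05 RPKM in a library. Cdh18, Cdh20 and Cntn6 were listed at 0 in all 6 libraries, 25 of the 41 had at most 10 reads in every library, and 16 had more in at least 1. Of those 16, 14 were higher in both delta libraries than in both beta libraries, 1 was the reverse, and 8 held the order beta, double-positive, delta without overlap. Among all 2990 genes under the filter with more than 10 reads in a library, the shares were 57.6%, 20.2% and 16.6%. Cadm2, Cdh9, Cdh10, Cdh17, Cntnap3, Lrrtm3 and Pcdh8 had more than 10 reads only in delta libraries. Their place among the 14 follows in part from that bound. Cntnap4 was 0 and 0 RPKM in beta, 0.0508 and 0.307 in double-positive and 0.516 and 1.05 in delta libraries, and Cdh9 was 0 and 0.0304 RPKM in beta, 0.0744 and 0.114 in double-positive and 0.513 and 0.594 in delta libraries. Lrrtm4 was the one with both beta values above both delta values, 0.128 and 0.159 RPKM in beta, 0.169 and 0.418 in double-positive and 0.0959 and 0.0415 in delta libraries. Genes on the opposite strand overlap 25.1% of the exon length of Lrrtm4, 8.01% of Cntnap4 and 6.33% of Cdh9, and reads there cannot be told apart. Cdh24 was highest in both double-positive libraries, 0.136 and 0.215 RPKM in beta, 0.468 and 0.639 in double-positive and 0.281 and 0.351 in delta libraries. Cdh5, the cadherin of vascular endothelium, was 0.919 and 0.184 RPKM in beta, 0.0400 and 0.184 in double-positive and 0.0887 and 0.208 in delta libraries, highest in the male beta library. Of the 7 other endothelial genes read, Plvap, Kdr, Flt1 and Pecam1 were also highest there (Plvap 1.77 and 0.388 RPKM in beta, 0.119 and 0.546 in double-positive and 0.146 and 0.411 in delta libraries), while Esam and Egfl7 were highest in delta cells. All 8 summed to 7.94 RPKM there and 4.06 to 8.43 in the others. Their part in the Cdh5 value was not tested. The 41 genes were not in the main fit. With no filter, Cdh9 was called lower in double-positive than in delta cells, -0.51 (adjusted p = 0.021). Cdh9, Cdh11, Cntnap3, Cntnap4, Lrrtm3 and Nlgn3 were then called lower in beta than in delta cells (0.0024, 0.025, 0.0062, 0.026, 0.028 and 0.0053). Cdh24 and Nlgn3 were called higher in double-positive than in beta cells (0.029 and 0.014). Of all genes, that run called 647, 6367 and 5666 in these directions.

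Genes of the same contacts that are not among the 69 were read from 5 lists of binding partners and relatives. Of 10 tested catenins and other cadherin partners, 6 were lower in beta than in delta cells (46.3% of all tested genes), 4 were higher in double-positive than in beta cells (42.5%) and 2 lower than in delta cells (7.20%), so the first and second are near the shares of all genes. After scaling these counts were 3, 0 and 2 (29.4%, 27.6% and 6.45% of all genes), with 1 higher in beta than in delta cells. The count of 6 was smaller without the male delta library, and the count of 2 without any single double-positive or delta library. The counts of all tested genes were smaller there too. The count of 4 was larger without the female beta library and smaller without any other library, and that of all tested genes moved likewise. Jup, plakoglobin, was 13.3 and 12.4 RPKM in beta, 19.5 and 18.4 in double-positive and 35.8 and 34.5 in delta libraries, and double-positive minus delta was -0.86 ± 0.10 (adjusted p = 0.0039). Its difference from beta cells was 0.53 ± 0.10 (adjusted p = 0.0063) and 0.15 (adjusted p = 0.30) after scaling. Ctnnd2, delta-catenin, was 6.66 and 8.66 RPKM in beta, 10.8 and 9.23 in double-positive and 15.1 and 16.0 in delta libraries, and its call below delta cells, -0.59 ± 0.15 (adjusted p = 0.045), missed the threshold with any 1 of those 4 libraries left out (adjusted p = 0.11 to 0.26). In 11 tested genes of the wider cadherin superfamily, 6 were lower and 2 higher in beta than in delta cells (46.3% and 11.7% of all genes), 6 higher and 1 lower in double-positive than in beta cells (42.5% and 8.46%), and 2 lower and 2 higher in double-positive than in delta cells (7.20% and 5.53%). After scaling the pairs were 6 and 2, 4 and 3, and 3 and 2. The shares of all genes were then 29.4% and 28.5%, 27.6% and 26.7%, and 6.45% and 5.99%. The counts of 2 and 2 were smaller without any single double-positive or delta library, as were those of all tested genes. Cdhr2, a microvillar protocadherin-related protein, was 0.910 and 1.21 RPKM in beta, 8.41 and 7.91 in double-positive and 18.7 and 24.8 in delta libraries and differed by -1.30 ± 0.16 (adjusted p = 0.0040) between double-positive and delta cells. Cdhr1 ran from beta down to delta like Nrcam, 19.1 and 22.1 RPKM in beta, 16.8 and 16.1 in double-positive and 7.67 and 8.77 in delta libraries. Unlike that of Nrcam, its double-positive minus beta difference was not called, -0.30 ± 0.12 (adjusted p = 0.077), although it was after scaling. Its double-positive minus delta difference was 0.92 ± 0.12 (adjusted p = 0.0055), with an adjusted p of 0.052 without the male delta library. Fat1 was 2.95 and 5.88 RPKM in beta, 12.7 and 12.5 in double-positive and 24.1 and 24.6 in delta libraries, with double-positive minus beta at 1.38 ± 0.24 (adjusted p = 0.0039) and double-positive minus delta at -0.90 ± 0.24 (adjusted p = 0.059). The latter passed with pool sex as a block, after scaling and without either beta library (adjusted p = 0.032, 0.049, 0.0040 and 0.0044).

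Secreted and membrane partners of neurexins and neuroligins gave 17 tested genes of 40 listed. Of these, 11 were lower and 2 higher in beta than in delta cells (46.3% and 11.7% of all genes), 10 higher and 2 lower in double-positive than in beta cells (42.5% and 8.46%), and 6 lower and 1 higher in double-positive than in delta cells (7.20% and 5.53%). After scaling the pairs were 10 and 4, 8 and 5, and 6 and 0. All genes then had shares of 29.4% and 28.5%, 27.6% and 26.7%, and 6.45% and 5.99%. Slitrk5 and Ptprd, called lower in beta and in double-positive than in delta cells, passed the level filter only through their delta values. They had to be higher there, so their calls in these counts follow in part from that choice. The count of 6 was smaller without any single double-positive or delta library, as was that of all tested genes. The count of 10 was smaller without the male beta or the male double-positive library, and so was that of all tested genes. The 1 gene above delta cells was 1 without the male double-positive library, 0 without any other and 2 with pool sex as a block. The 2 genes below beta cells were 3 without the female double-positive library and 0 without any other. Cbln4, a cerebellin that bridges neurexins to their partners, was 0.0160 and 0.0337 RPKM in beta, 1.68 and 2.85 in double-positive and 6.60 and 11.1 in delta libraries. In double-positive cells it differed from delta cells by -1.58 ± 0.26 (adjusted p = 0.011). The adjusted p was 0.069 without the male double-positive and 0.053 without the female delta library. Slitrk6, a leucine-rich receptor partner, was 4.03 and 5.96 RPKM in beta, 25.6 and 23.8 in double-positive and 51.7 and 54.4 in delta libraries, with -1.07 ± 0.16 (adjusted p = 0.0089) against delta cells, which missed the threshold with any 1 of those 4 libraries left out (adjusted p = 0.052 to 0.074). Adgrl2, a latrophilin, was 0.0392 and 0.0275 RPKM in beta, 1.27 and 1.34 in double-positive and 3.20 and 3.69 in delta libraries (-0.95 ± 0.13, adjusted p = 0.0061). Igsf9b, which works with neuroligin 2 at inhibitory contacts, showed the near-delta level of Nlgn2: 1.25 and 2.84 RPKM in beta, 7.59 and 7.51 in double-positive and 8.75 and 7.88 in delta libraries, with double-positive minus delta at -0.12 ± 0.24 (adjusted p = 0.80) and minus beta at 1.54 ± 0.24 (adjusted p = 0.0025).

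Among intracellular scaffolds 26 of 34 were tested. Of these, 16 were lower and 1 higher in beta than in delta cells (46.3% and 11.7% of all genes), 15 were higher in double-positive than in beta cells (42.5%), and 4 were lower and 1 higher in double-positive than in delta cells (7.20% and 5.53%). After scaling they were 14 and 4 (29.4% and 28.5% of all genes), 9 with 2 lower (27.6% and 26.7%), and 4 and 2 (6.45% and 5.99%). The 15 were fewer without the male double-positive library, and the 4 were fewer without any single double-positive or delta library. The counts of all tested genes were smaller there too. With pool sex as a block the 4 were 7, and those of all tested genes went from 937 to 1078. The 1 gene above delta cells was 2 without either beta library and 0 without any other, and the 1 above in beta was 2 without the male beta library. Ppfia2, a liprin that binds receptor phosphatases, was 0.0231 and 0.0792 RPKM in beta, 2.66 and 2.46 in double-positive and 6.66 and 5.86 in delta libraries (-1.03 ± 0.13, adjusted p = 0.0041 for double-positive minus delta). Shank2 and Mpp2 in double-positive cells differed from delta cells by -0.83 ± 0.13 (adjusted p = 0.0089) and -0.77 ± 0.12 (adjusted p = 0.0092). Neither of that pair held without each library in turn: Shank2 missed the threshold with any 1 of the 4 libraries compared left out (up to 0.058) and Mpp2 without either double-positive or the female delta library (adjusted p = 0.067, 0.051 and 0.097).

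A mixed list of other immunoglobulin-type adhesion proteins (such as Jam2, Pvrl1 and Alcam) and of receptors, enzymes and a kinase that act with such proteins gave 15 tested genes. Of these, 13 were lower and 1 higher in beta than in delta cells (46.3% and 11.7% of all genes), 11 higher and 1 lower in double-positive than in beta cells (42.5% and 8.46%), and 8 lower and 1 higher in double-positive than in delta cells (7.20% and 5.53%). After scaling they were 11 and 1, 9 and 1, and 7 and 1. The shares of all genes were then 29.4% and 28.5%, 27.6% and 26.7%, and 6.45% and 5.99%. The count of 8 was smaller without any single double-positive or delta library, as was that of all tested genes. The 1 gene below beta cells lost its call without the male double-positive library, where the count of all tested genes was also smaller. Ptprz1, a receptor phosphatase that binds contactin 1, was 0.0228 and 0.0275 RPKM in beta, 9.61 and 9.30 in double-positive and 25.9 and 26.3 in delta libraries, with -1.37 ± 0.10 (adjusted p = 9.0e-04) for double-positive minus delta and 3.35 ± 0.10 (adjusted p = 2.3e-05) for double-positive minus beta. Ptprg, a phosphatase that binds contactins 3 to 6, was 0.947 and 0.914 RPKM in beta, 7.62 and 7.34 in double-positive and 13.5 and 15.5 in delta libraries (-0.86 ± 0.12, adjusted p = 0.0056 against delta cells, and 0.0505 and 0.065 without the female double-positive or female delta library). Gfra1, a GDNF receptor that works with NCAM, was 0.152 and 0.125 RPKM in beta, 4.49 and 5.41 in double-positive and 15.1 and 19.3 in delta libraries (-1.61 ± 0.15, adjusted p = 0.0018). Cntfr, the ciliary neurotrophic factor receptor, ran the other way at 19.0 and 27.2 RPKM in beta, 8.43 and 12.9 in double-positive and 1.48 and 1.58 in delta libraries (2.18 ± 0.23, adjusted p = 0.0025 for double-positive minus delta). The list medians for double-positive minus delta were -0.61 for this mixed list, -0.28 for extracellular synaptic partners, -0.17 for scaffolds, -0.084 for the wider cadherin superfamily and -0.070 for cadherin partners, where all tested genes had -0.027.

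**Figure D5:**
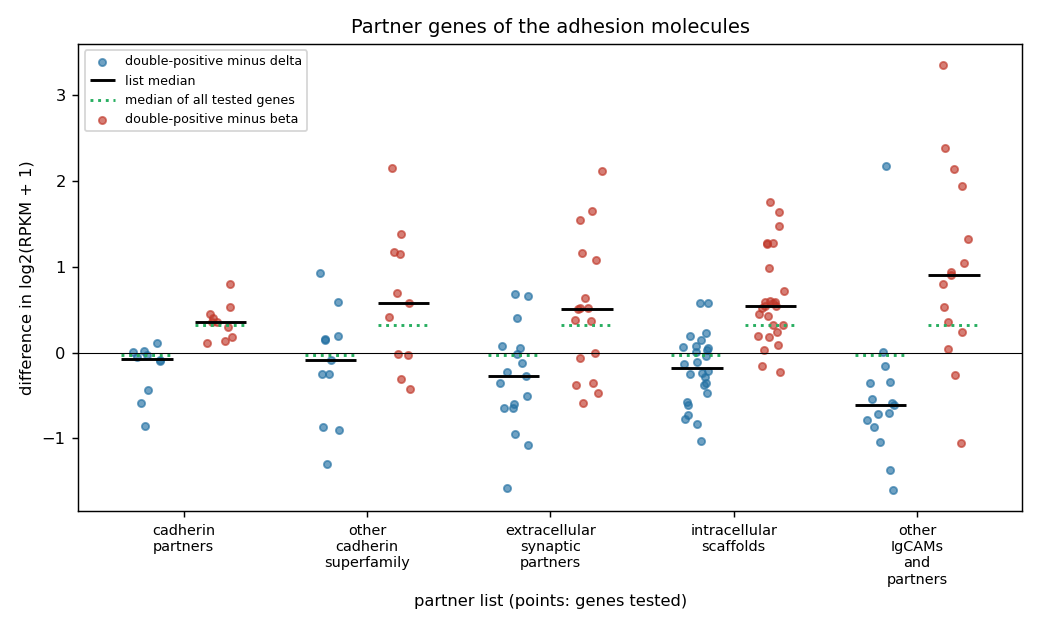
Differences in log2(RPKM + 1) for each tested gene of the 5 partner lists, double-positive minus delta in blue and double-positive minus beta in red; black bars are list medians and dotted bars the median of all tested genes. In the list of other immunoglobulin-type proteins and their partners (IgCAMs) the list median is -0.61 against delta cells, and Cntfr is the blue point above 2.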

How the data were processed

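RNA from sorted cells was made into libraries with the TruSeq RNA v2 kit, per the labels' protocols. The authors deposited RPKM values, 1 table for all 6 libraries; STAR 2.5, featureCounts, edgeR 3.14.0 and GRCm38.p4 are named in the submitters' processing notes, and no source used here gives the strand setting. Rows with 27 date-like symbols were left out. Exon lengths from GENCODE M21 made 83.3% to 86.4% of values worth under 50 reads whole to within 0.01 reads, which gave the read denominators; such read numbers are estimates and cover counting error only.

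Genes with at least 1 RPKM in at least 2 of 6 libraries were fitted as log2(RPKM + 1) in limma 3.58.1 (R 4.3.3), trend option, with 3 groups in 1 model, 3 residual degrees of freedom, Benjamini-Hochberg adjustment over 13022 genes and a threshold of 0.05; the code was tested on simulated data. Named genes were up to 25 members called in any comparison, by the largest log2 difference, a panel (Cdh1, Cdh2, Epcam, Ncam1, Nlgn2, Cadm1, L1cam, Chl1, Cntn1) whatever its result, and up to 4 called genes per partner list; Cadm4, Cntnap2, Nfasc, Lrrtm2 and the members under the filter that are given by name were picked after their values were seen. Some genes that these rules take, and some markers, are not reported here. Alternatives were another pseudocount, no filter, median-of-ratios scaling, pool sex as a block, only the 4 libraries compared and each library left out; for partner genes and order counts they were chosen after seeing the data. The pools of 1 sex came from the same islets, per the series text, and their deviations from group means correlated at 0.47, 0.24 and 0.36. Members and lists were chosen with earlier results of these data known. The authors' values carry no counts, so no count model was used.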

Additional observations from a re-analysis of the deposited data

How the results depend on the processing

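With the replicate block for pool sex, Cdh22 (double-positive minus beta, adjusted p = 0.044), Cdh7 and Nfasc (beta minus delta, 0.026 and 0.043) and the partner Fat1 (double-positive minus delta, 0.032) became called. No other call of a gene given by name changed. Genes higher in beta than in delta cells went from 1 to 2, and those of all tested genes from 1521 to 1649. Leaving out 1 library, genes lower in double-positive than in delta cells ranged from 5 to 11 and higher from 1 to 2, genes lower in double-positive than in beta cells from 1 to 2, and genes higher in beta than in delta cells from 1 to 3. A pseudocount of 0.1 gave 7 lower in double-positive than in delta cells, with 645 of all genes against 937 in the main fit. It gave 2 higher in beta than in delta cells, with 1513 of all genes against 1521. It ended the double-positive minus delta calls of Cntn3, Cntnap5b, Nrxn2, Pcdh15, Pcdh9 and Ctnnd2 (0.14, 0.075, 0.14, 0.069, 0.12 and 0.060) and the double-positive minus beta call of Cdh7 (0.064), and beta minus delta of Cdh7 passed (0.032). No filter gave 8 lower, among them Cdh9, and 1 higher in double-positive than in delta cells. Of all genes it gave 647 and 506, against 937 and 720 in the main fit. It ended the calls of Cdh2, Cdh22, Cdh7, Cntn3, Nrxn2, Pcdh9, Cbln4 and Ctnnd2 in that comparison (0.078, 0.095, 0.051, 0.074, 0.064, 0.068, 0.061 and 0.11), of Cdh1, Cdh7 and Lrrtm1 for double-positive minus beta (0.074, 0.076 and 0.075) and of Cdh8 and Pcdh1 for beta minus delta (0.074 and 0.058). With only the 4 libraries compared, Nrxn2 and Pcdh9 (double-positive minus delta, 0.063 and 0.051) and Cdh1 (double-positive minus beta, 0.083) lost their calls, and Cdh8 and Fat1 passed for double-positive minus delta (0.015 and 0.0042). Median-of-ratios scaling gave 3 lower in double-positive than in beta cells and 5 higher in beta than in delta cells. Scaling turned the sign of Cdh1, Cdh8, Cntn1, L1cam, Pcdh1 and Ctnnd2 for double-positive minus beta (-0.013, -0.082, -0.33, -0.052, -0.23 and -0.013) and of Cadm4 and Cntn1 for beta minus delta (0.29 and 0.066). Of these only Cdh1 was called before scaling and only Cadm4 after it. Leaving out 1 library turned the sign of some uncalled differences, which ranged from -0.17 to 0.13 for Cntnap2 and -0.082 to 0.12 for Mllt4 (double-positive minus delta), from -0.088 to 0.022 for Cadm4, -0.12 to 0.67 for Cdh8 and -0.18 to 0.24 for Cntn1 (double-positive minus beta), and from -0.012 to 0.60 for Cntnap2 and -0.12 to 0.20 for L1cam (beta minus delta). The cause was not tested. With 2 libraries a group, the lone library left is assumed to vary like the others, and beta values of a few reads cannot rank genes.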
